A study of Homo sapiens with 6 samples.

Results

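Hypoxia and HIF target genes are genes that cells switch on when oxygen falls, together with the subunits and sensors of the hypoxia-inducible factor (HIF) itself. The 34 genes described here, of 57500 in the deposited count tables, were chosen by name from knowledge of the pathway. Earlier results of these data were known when they were chosen, so the list is not independent of the data. All 34 were found by gene symbol, and all 34 had enough reads to be tested. They fall into 7 roles: 3 HIF subunits, 5 oxygen sensors and inhibitors, 5 secreted signals, 7 enzymes of collagen and protein folding, 4 mitochondrial proteins, 5 factors of transcription and chromatin, and 5 other targets.

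HIF is a pair of proteins, an oxygen-regulated alpha subunit (HIF-1 alpha, encoded by HIF1A, or HIF-2 alpha, encoded by EPAS1) and a constant beta subunit encoded by ARNT. When oxygen is plentiful, the EGLN prolyl hydroxylases mark the alpha subunit, and VHL then directs it to the proteasome, so that HIF activity is set mainly by protein stability and not by the RNA of its subunits. When oxygen falls, the alpha subunit accumulates and induces genes for blood vessel growth, glycolysis, collagen maturation, mitochondrial turnover and, as feedback, EGLN3 itself.

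The study sequenced polyA-selected RNA of 22Rv1 cells, a long-established prostate carcinoma line. Parental 22Rv1 cells, labelled as controls of wild type genotype, gave 3 libraries, and 22Rv1 cells labelled as derived from a liver metastasis gave another 3. The medium named for both was RPMI with fetal bovine serum, and the labels name no oxygen level, low-oxygen exposure or engineered allele. The labels do not say whether the 3 libraries of a group came from separate cultures, or whether the liver-derived cells came from more than 1 metastasis, so p-values measure only the spread between these libraries, which may be technical.

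Library totals ranged from 28395265 to 53275252 counts. The epithelial marker genes KRT8, KRT18 and EPCAM were above 10 CPM (counts scaled to library size, with TMM factors) in every library. Of 10 hepatocyte markers, 8 were under 1 CPM in every library. The summed level of the 10 was 43.5 to 54.2 CPM in parental and 65.7 to 69.0 CPM in liver-derived libraries, most of it from ALB, which encodes albumin. ASGR1, the other hepatocyte marker to reach 1 CPM, went the opposite way. It was at 1.40, 1.54 and 1.48 CPM in parental and 0.134, 0.215 and 0.185 CPM in liver-derived libraries. Of 8 markers of endothelium, stroma and leukocytes, 5 were under 1 CPM in every library, the endothelial gene CDH5 was at 0, and the summed level was 20.0 to 23.6 CPM against 20.2 to 21.2 CPM. Any part of such cells in the results below was not tested. The second parental library stood apart from the other parental libraries along a gradient of GC content, and the third library of each group shared high counts of a few genes. Values without these libraries are given beside several of the calls that they change.

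In liver-derived cells, 13 of the 34 genes were higher and 4 were lower than in parental cells, and 17 did not pass the threshold (edgeR, quasi-likelihood; p-values adjusted over all 19255 genes tested, threshold 0.05). Over all genes tested, 38.8% passed, 17.5% as higher and 21.3% as lower. The hypoxia and HIF genes therefore passed as higher in 38.2% and as lower in 11.8%, with a median log2 fold change of 0.12 against -0.0075 over all genes. The libraries of the groups did not overlap for 24 of the 34 genes (70.6%), against 54.0% of all genes tested. A change of at least 2-fold was found for 6 genes that were higher and 2 that were lower, in a background of 4.49% and 9.32% of all genes tested. The genes with at least 2-fold higher levels were EGLN3, STC2, ADM, P4HA1, AK4 and VEGFA, and those with at least 2-fold lower levels were NDRG1 and PPFIA4. In these bulk RNA libraries, fewer cells that express a gene and less RNA per cell cannot be told apart.

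The calls depended on which libraries and scalings were used. Without the second parental library, 16 of the genes passed as higher and 8 as lower, where 28.8% and 31.0% of all genes tested did (59.8% in all). With a smooth GC-content offset for each library the counts were 17 and 7, against 27.4% and 29.3% of all genes (56.7% in all). Scaling by library size alone gave 10 higher and 6 lower, where 7610 of all 19255 genes passed in either direction. That scaling moved the median log2 fold change over all genes to -0.0598, from -0.0075. Of the 17 genes called, 11 kept their call and direction in every alternative that gave them a value, and these included the 8 with changes of at least 2-fold. That was 19 alternatives for each of the 11 except PPFIA4, which had a value in 17.

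**Figure D1:**
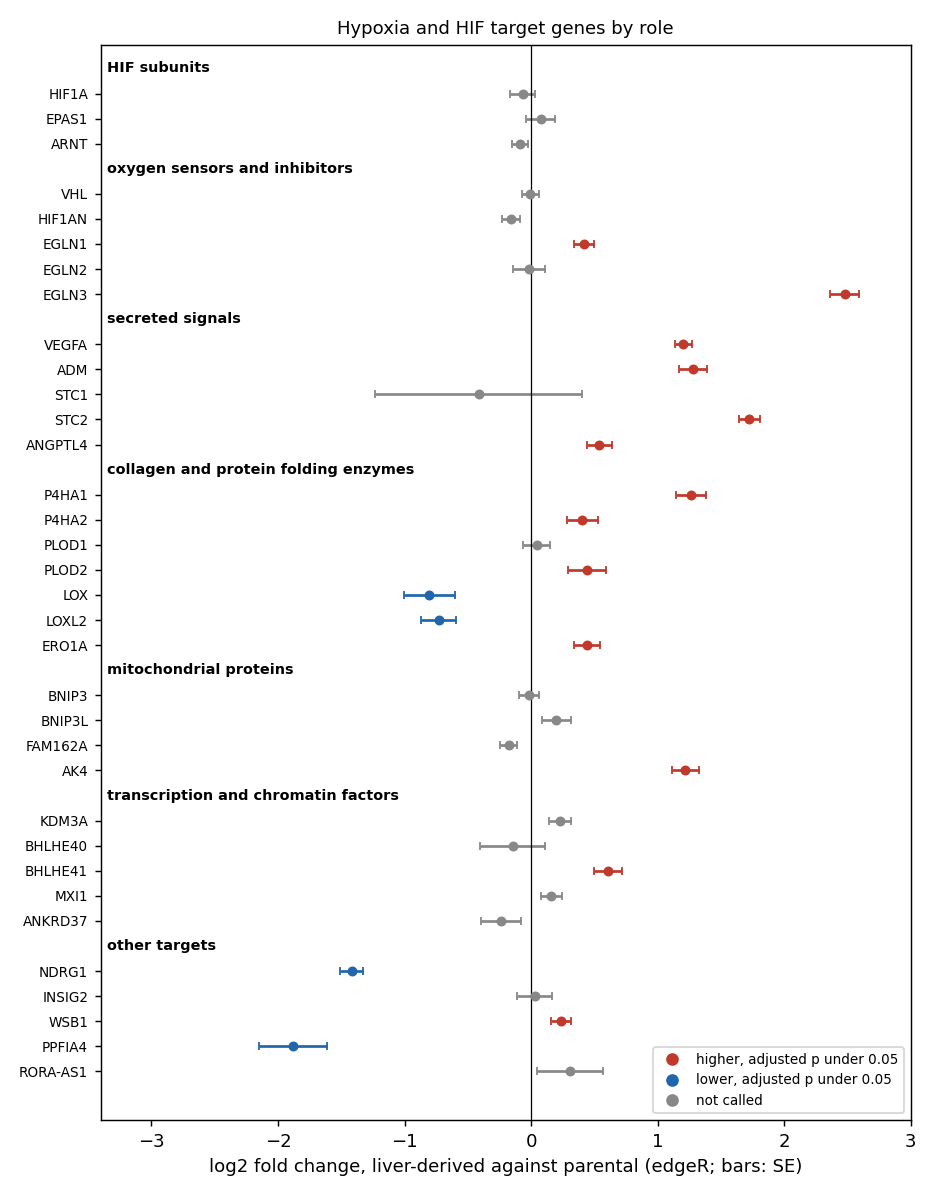
Fitted log2 fold change of each of the 34 genes, liver-derived against parental, with bars for 1 SE, grouped by role (n = 3 libraries per group). EGLN3, in the group of oxygen sensors and inhibitors, lies farthest to the right at 2.48, PPFIA4 lies farthest to the left at -1.88, and the 3 HIF subunits lie near 0.

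The RNA of the HIF subunits did not pass the test in either direction. HIF1A (ENSG00000100644, chr14:61695513-61748259, plus strand, GRCh38), the oxygen-regulated subunit of HIF-1, was at 139.0, 107.0 and 132.2 CPM in the parental libraries (replicates 1 to 3, in that order throughout) and at 119.1, 119.2 and 122.6 CPM in liver-derived libraries. The second parental library lay below all others, and the groups overlapped. The fitted log2 fold change was -0.068 (SE 0.099, adjusted p = 0.627). Without the second parental library the log2 fold change was -0.17 with an adjusted p of 1.23e-06. With the GC-content offset, which keeps that library, it was -0.12 with an adjusted p of 0.0397. Whether HIF1A passes as lower thus depends on how that library and its GC gradient are handled. EPAS1 (ENSG00000116016, chr2:46293667-46386703, plus strand), the HIF-2 alpha gene, was at 5.21, 5.36 and 5.42 CPM in parental and 5.02, 5.44 and 6.37 CPM in liver-derived libraries, with groups that overlapped and a log2 fold change of 0.075 (SE 0.11, adjusted p = 0.637). ARNT (ENSG00000143437, chr1:150809705-150876768, minus strand), the constant partner, was at 76.2, 77.8 and 78.2 CPM and then 73.8, 71.0 and 73.7 CPM. All liver-derived values of ARNT lay below the parental ones, by a log2 fold change of -0.087 that did not pass (SE 0.065, adjusted p = 0.329). ARNT passed as lower without the second parental library (-0.082, adjusted p = 0.0243) and with the GC-content offset (-0.13, adjusted p = 0.00803).

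On the per-length TPM scale, HIF1A was the most abundant subunit, at 88.7 ± 15.2 TPM in parental and 82.0 ± 1.0 TPM in liver-derived cells (SD, n = 3 each). ARNT followed at 42.9 ± 1.82 and 39.3 ± 0.781 TPM, and EPAS1 was at 2.64 ± 0.121 and 2.70 ± 0.321 TPM. EPAS1 made up 2.93% ± 0.43 of the summed alpha subunit TPM in parental cells and 3.18% ± 0.329 in liver-derived cells, which is within the spread between libraries.

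Among the oxygen sensors and inhibitors, the hydroxylase genes EGLN1 and EGLN3 rose, and VHL, EGLN2 and HIF1AN did not pass. EGLN3 (ENSG00000129521, chr14:33924231-34462774, minus strand), which encodes prolyl hydroxylase PHD3 and is a widely used HIF target, was at 3.27, 3.42 and 2.60 CPM in parental and at 16.6, 17.1 and 17.9 CPM in liver-derived replicates. Every liver-derived library was above every parental one, by a log2 fold change of 2.48 (SE 0.12), which is 5.57-fold (adjusted p = 5.43e-07). By size of change it stood at rank 126 among the 3375 genes called higher. EGLN1 (ENSG00000135766, chr1:231363751-231425044, minus strand) encodes PHD2, the main HIF prolyl hydroxylase in most cells, and was at 74.4, 65.3 and 75.3 CPM in parental and 92.6, 97.6 and 97.3 CPM in liver-derived replicates. The groups did not overlap, and the log2 fold change was 0.42 (SE 0.078, adjusted p = 0.00275). EGLN2 (ENSG00000269858, chr19:40798996-40808433, plus strand), which encodes PHD1, was at 14.4, 18.5 and 13.5 CPM and then 14.6, 16.4 and 14.9 CPM, with overlapping groups (log2 fold change -0.018, SE 0.13, adjusted p = 0.926). EGLN2 shares 27.2% of its exon bases with the readthrough gene RAB4B-EGLN2, which held 0 to 9 counts, so its level depends on how such reads were assigned.

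The mix of prolyl hydroxylase RNA differed between the groups. The summed level of the 3 EGLN genes was 45.7 ± 3.05 TPM in parental and 62.7 ± 1.86 TPM in liver-derived cells (SD, n = 3 each). EGLN3 made up 3.46%, 3.78% and 2.76% of that sum in the parental libraries and 13.1%, 12.7% and 13.5% in the liver-derived ones. The EGLN1 share was 78.0% ± 4.2 and 73.9% ± 0.247, and the EGLN2 share was 18.6% ± 3.76 and 13.0% ± 0.596. EGLN1 thus stayed the most abundant of the 3 in all 6 libraries.

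VHL (ENSG00000134086, chr3:10141008-10152220, plus strand), the substrate receptor that binds hydroxylated HIF alpha, was at 104.6, 98.3 and 101.6 CPM in parental and at 98.7, 103.2 and 101.6 CPM in liver-derived libraries. The groups overlapped, and the log2 fold change was -0.0053 (SE 0.066, adjusted p = 0.958). HIF1AN, the asparaginyl hydroxylase that blocks HIF from its coactivators, was at 93.9 ± 5.06 CPM in parental and 84.3 ± 1.53 CPM in liver-derived cells (SD, n = 3 each). Its groups did not overlap and its log2 fold change of -0.16 (SE 0.071) did not pass (adjusted p = 0.112), whereas it passed as lower in 5 of 19 alternatives, among them without the second parental library (-0.11, adjusted p = 0.00153) and with the GC-content offset (-0.20, adjusted p = 0.00251).

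Of the 5 secreted signals, 4 rose, and the median log2 fold change of the 5 was 1.20. VEGFA (ENSG00000112715, chr6:43770184-43786487, plus strand), the growth factor for blood vessels, was at 76.9, 79.9 and 74.1 CPM in parental and 178.7, 176.2 and 176.7 CPM in liver-derived libraries. The groups were far apart relative to their spread, with a log2 fold change of 1.20 (SE 0.066) or 2.30-fold (adjusted p = 1.28e-06). STC2 (ENSG00000113739, chr5:173314713-173329503, minus strand), which encodes the glycoprotein hormone stanniocalcin 2, was at 15.3, 17.1 and 17.4 CPM and then 54.6, 56.1 and 54.1 CPM. Each liver-derived library was above each parental one, by a log2 fold change of 1.73 (SE 0.080) or 3.31-fold (adjusted p = 4.47e-07). ADM (ENSG00000148926, chr11:10304680-10307397, plus strand), which encodes the vasodilator peptide adrenomedullin, was at 3.83, 4.83 and 3.91 CPM in parental and 9.92, 10.0 and 10.5 CPM in liver-derived libraries. It was higher in all 3 liver-derived libraries, by a log2 fold change of 1.28 (SE 0.11) or 2.43-fold (adjusted p = 2.58e-05). ANGPTL4, an inhibitor of lipoprotein lipase, rose from 36.5 ± 4.66 to 53.1 ± 1.12 CPM (SD, n = 3 each; log2 fold change 0.54, SE 0.097, adjusted p = 0.00217), without overlap. On the TPM scale VEGFA reached 43.1 ± 0.407, STC2 31.5 ± 0.689 and ADM 13.1 ± 0.352 in liver-derived cells.

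The remaining secreted signal, STC1 (ENSG00000159167), the paralog of STC2, did not pass, and its libraries were split by replicate number. It was at 4.20, 3.15 and 16.2 CPM in parental libraries and at 1.92, 1.61 and 13.7 CPM in liver-derived libraries, replicate 3 last. The third library was the highest in each group, and the third libraries both lay above all 4 others. The fitted log2 fold change was -0.41 (SE 0.82, adjusted p = 0.725). After the third library of each group was left out, a choice made once the values were seen, it was -1.04 (SE 0.22, adjusted p = 0.00736). Without a filter on low counts it was -0.42 (SE 0.13, adjusted p = 0.00758). That SE is far below the 0.82 of the main fit on the same libraries, so this p-value understates their spread. With the replicate number as a block the log2 fold change was -0.68 (SE 0.17, adjusted p = 0.0113). Without the third liver-derived library it was -2.14 and without the third parental library 0.68, neither past the threshold (adjusted p = 0.0602 and 0.538). Of all 19255 genes tested, STC1 had the largest excess of the third library over the other libraries in both groups at once, at least 1.83 on the log2(CPM + 0.5) scale. PRSS2, a trypsinogen gene named here after its values were seen, was next, at 1.01, 0.639 and 6.16 CPM in parental and 1.11, 0.752 and 4.26 CPM in liver-derived libraries. On that scale, only these 2 genes and EPHB1 were at least 2-fold above both other libraries in the third library of each group, and STC1 was the only one of the 34 genes among them. What the third libraries share was not tested.

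**Figure D2:**
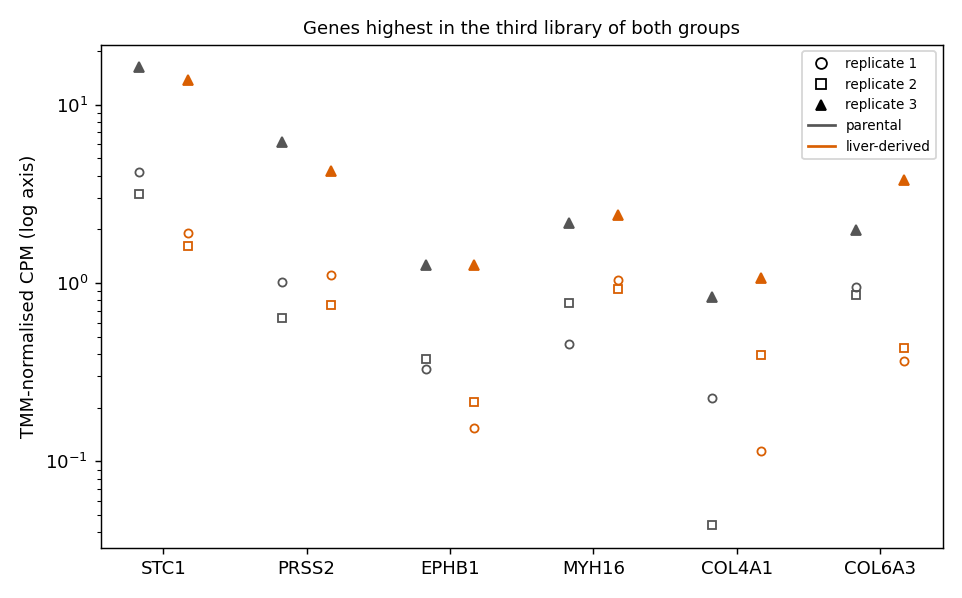
TMM-normalised CPM (log axis) by library for genes highest in the third library of both groups. STC1 is at 16.2 and 13.7 CPM in the third parental and liver-derived libraries and at 1.61 to 4.20 CPM in the other 4.

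Among the 7 enzymes of collagen and protein folding, 4 rose and 2 fell. P4HA1 (ENSG00000122884, chr10:73007217-73096974, minus strand), the catalytic subunit of the prolyl hydroxylase that stabilises the collagen triple helix, was at 41.0, 30.0 and 39.6 CPM in parental and 86.4, 88.1 and 91.1 CPM in liver-derived libraries. The second parental library was the lowest, the groups did not overlap, and the log2 fold change was 1.26 (SE 0.12) or 2.40-fold (adjusted p = 3.69e-05). Its paralog P4HA2 was at 5.66, 6.57 and 7.62 CPM and then 9.13, 7.98 and 9.08 CPM (log2 fold change 0.40, SE 0.12, adjusted p = 0.029). P4HA1 made up 93.8% ± 1.33 of the summed TPM of both in parental and 96.5% ± 0.259 in liver-derived cells (SD, n = 3 each). PLOD2, a lysyl hydroxylase of collagen, was at 42.2, 27.7 and 41.6 CPM and then 51.5, 49.2 and 50.7 CPM (log2 fold change 0.44, SE 0.15, adjusted p = 0.0416). ERO1A, the oxidase that renews disulfide-forming enzymes in the endoplasmic reticulum, was at 49.3, 38.8 and 50.5 CPM and then 61.9, 63.6 and 62.7 CPM (log2 fold change 0.44, SE 0.10, adjusted p = 0.0087). The groups did not overlap for any of these 4 genes. The calls of P4HA2 and PLOD2 were each lost in 8 of 19 alternatives and that of ERO1A in 3. Without the third library of each group, P4HA2 was at 0.49 (adjusted p = 0.0522) and PLOD2 at 0.53 (adjusted p = 0.0716). PLOD1, a further lysyl hydroxylase, did not pass (log2 fold change 0.044, adjusted p = 0.781). PLOD1 passed as higher without the second parental library (0.18, adjusted p = 3.46e-05) and with the GC-content offset (0.13, adjusted p = 0.0155).

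The 2 lysyl oxidase genes, whose secreted enzymes cross-link collagen and elastin, moved the opposite way. LOX (ENSG00000113083, chr5:122063195-122078285, minus strand) was at 7.33, 5.47 and 7.28 CPM in parental and at 2.70, 4.40 and 4.53 CPM in liver-derived libraries. All liver-derived values lay below the parental ones, and LOX fell by 0.81 on the log2 scale (SE 0.20, adjusted p = 0.0121). LOXL2 was at 5.21, 6.19 and 5.93 CPM and then 2.91, 4.01 and 3.65 CPM. It fell by 0.73 on the log2 scale (SE 0.14, adjusted p = 0.00286), again without overlap. The call of LOX was lost in 1 alternative.

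**Figure D3:**
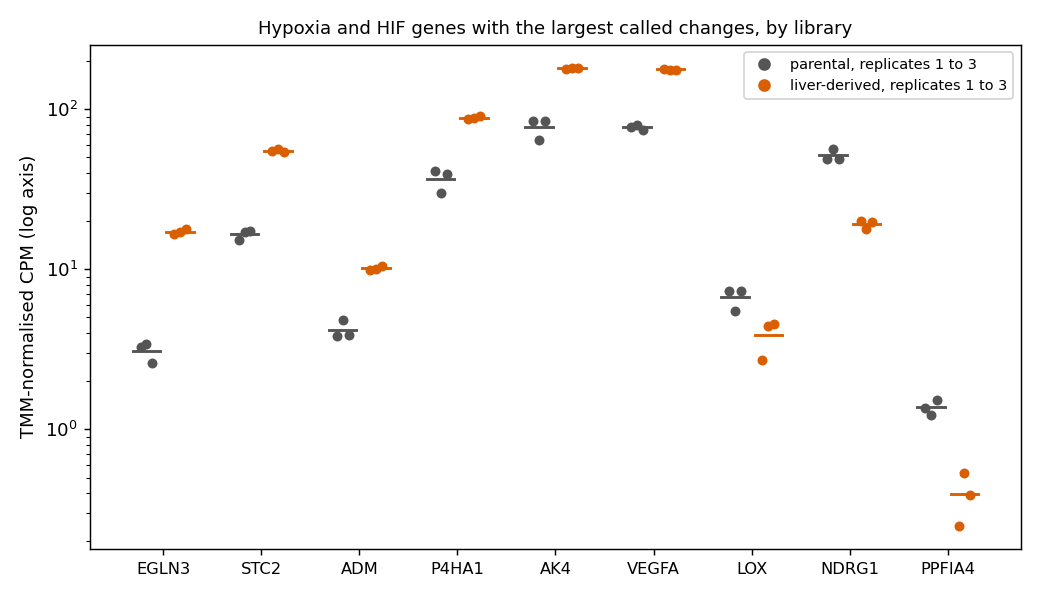
TMM-normalised CPM (log axis) in each library for the genes whose log2 change was at least 0.8 in size and passed the test, with the group mean as a line (n = 3 libraries per group). For all 9 genes the parental and liver-derived points do not overlap, and EGLN3, STC2, ADM, P4HA1, AK4 and VEGFA are higher in liver-derived cells.

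Of the 4 mitochondrial proteins, 1 rose. AK4 (ENSG00000162433, chr1:65147549-65232145, plus strand), an adenylate kinase of the mitochondrial matrix, was at 84.6, 64.2 and 84.2 CPM in parental and 179.5, 182.1 and 180.5 CPM in liver-derived libraries. All liver-derived values were above the parental ones, by a log2 fold change of 1.22 (SE 0.11) or 2.33-fold (adjusted p = 2.92e-05). The processed pseudogene AK4P1 held 72 to 187 counts per library against 2913 to 9377 for AK4, and how reads shared by the pair were assigned is not known. BNIP3 and BNIP3L, paralogous receptors for mitochondrial autophagy, did not pass. BNIP3 was at 42.5 ± 3.0 and 42.0 ± 2.03 CPM (log2 fold change -0.016, adjusted p = 0.899), and BNIP3L at 45.04 ± 7.2 and 51.7 ± 0.923 CPM (0.20, adjusted p = 0.202). With the GC-content offset BNIP3L passed as higher (0.15, adjusted p = 0.00513). BNIP3 has many pseudogene copies, of which BNIP3P11 had the most reads, at 25 to 50 counts. FAM162A, a mitochondrial protein linked to hypoxic cell death, was at 82.6 ± 1.97 and 73.1 ± 2.11 CPM (SD, n = 3 each) without overlap, and its log2 fold change of -0.18 did not pass (adjusted p = 0.0648). FAM162A passed as lower in 5 of 19 alternatives, among them without the second parental library (-0.17, adjusted p = 2.51e-05) and by library size alone (-0.23, adjusted p = 0.0185).

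Among the 5 factors of transcription and chromatin, 1 rose. BHLHE41, a transcriptional repressor of the circadian clock, was at 3.46, 3.75 and 3.36 CPM in parental and 4.86, 5.41 and 5.81 CPM in liver-derived libraries. The groups did not overlap (log2 fold change 0.61, SE 0.11, adjusted p = 0.00245). BHLHE41 lost its call without the third library of each group (0.51, adjusted p = 0.0561). Its paralog BHLHE40, often used as a hypoxia marker, was at 1.11 ± 0.111 and 1.05 ± 0.396 CPM and did not pass (log2 fold change -0.15, adjusted p = 0.693). The histone demethylase gene KDM3A (log2 fold change 0.23, adjusted p = 0.0738), the MYC antagonist gene MXI1 (0.16, adjusted p = 0.15) and ANKRD37 (-0.24, adjusted p = 0.276) did not pass either. Without the second parental library KDM3A (0.16, adjusted p = 0.00624) and MXI1 (0.10, adjusted p = 0.0205) passed as higher, and both also passed with the GC-content offset (adjusted p = 0.011 and 0.0466). For ANKRD37, 35.2% of its exon bases lie opposite UFSP2, which held 476 to 1086 counts against 45 to 90, so without a known strand setting their reads cannot be told apart.

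Of the 5 other targets, 2 fell, 1 rose and 2 did not pass. NDRG1 (ENSG00000104419), a gene induced by HIF and by cell stress, was at 49.0, 56.3 and 49.0 CPM in parental and 20.0, 17.9 and 19.8 CPM in liver-derived libraries. All liver-derived values were below the parental ones, and NDRG1 fell by 1.42 on the log2 scale (SE 0.090), which is 2.67-fold (adjusted p = 3.63e-06). PPFIA4 (ENSG00000143847, chr1:203026498-203078740, plus strand), a liprin scaffold gene, was at 1.36, 1.23 and 1.54 CPM in parental and 0.249, 0.537 and 0.391 CPM in liver-derived libraries. It fell by 1.88 on the log2 scale (SE 0.27, adjusted p = 5.48e-04) without overlap, on 13 to 19 counts in the liver-derived libraries. WSB1, which encodes a ubiquitin ligase adaptor, was at 57.0, 49.0 and 54.6 CPM and then 62.2, 64.2 and 63.0 CPM (log2 fold change 0.24, SE 0.078, adjusted p = 0.0387), a call lost in 11 of 19 alternatives. INSIG2, a brake on sterol synthesis, was at 7.17 ± 1.32 and 7.34 ± 0.401 CPM (SD, n = 3 each) and did not pass (log2 fold change 0.028, adjusted p = 0.896). RORA-AS1 rested on 18 to 29 counts and did not pass (0.31, adjusted p = 0.385), and 27.7% of its exon bases lie opposite RORA.

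**Figure D4:**
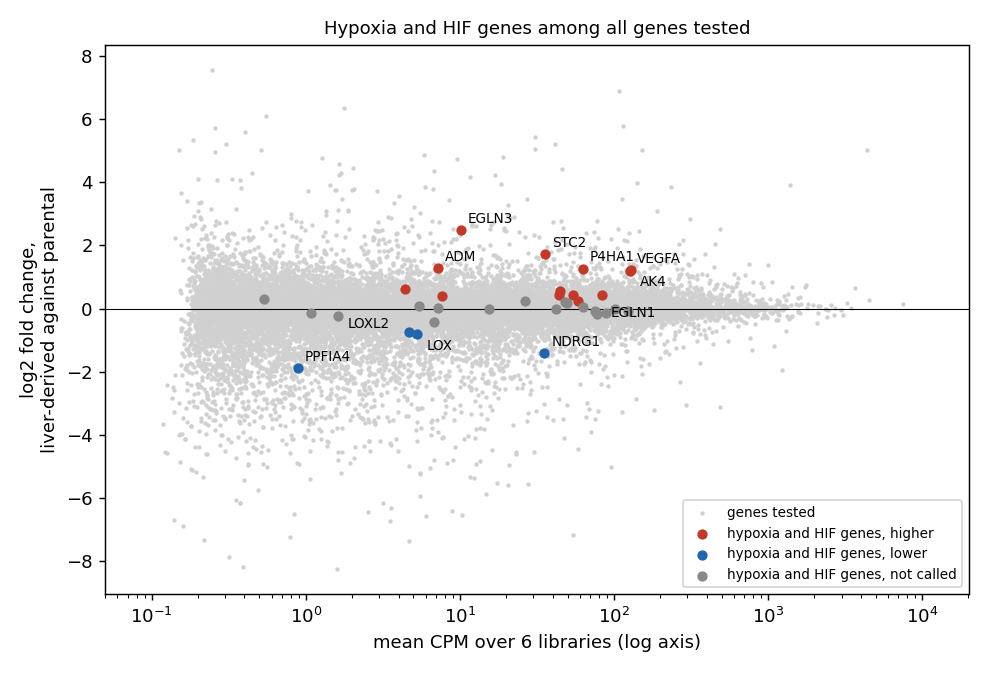
Mean CPM over the 6 libraries (log axis) against the fitted log2 fold change for all 19255 genes tested, with the 34 hypoxia and HIF genes in colour by call. EGLN3 at 2.48 and STC2 at 1.73 are the highest of the 34, and PPFIA4 at -1.88 and NDRG1 at -1.42 are the lowest.

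The second parental library deviated from the other parental libraries along GC content, and many of the genes described here followed it. Of the 16 genes with a GC content below 45%, 13 were lower in that library than the mean of the other parental libraries. Of the 12 above 50%, 9 were higher. PLOD2, at 34.4% GC, was lower by a log2 difference of -0.59, whereas EGLN2, at 55.8% GC, was higher by 0.40 and ANGPTL4, at 63.3% GC, by 0.30. Across the 34 genes, the Spearman correlation of the deviation with GC content was 0.706, and across 19165 tested genes it was 0.753; genes of 1 library are not independent replicates. The part of this gradient in each call was not tested beyond the fits without that library and with the GC-content offset.

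**Figure D5:**
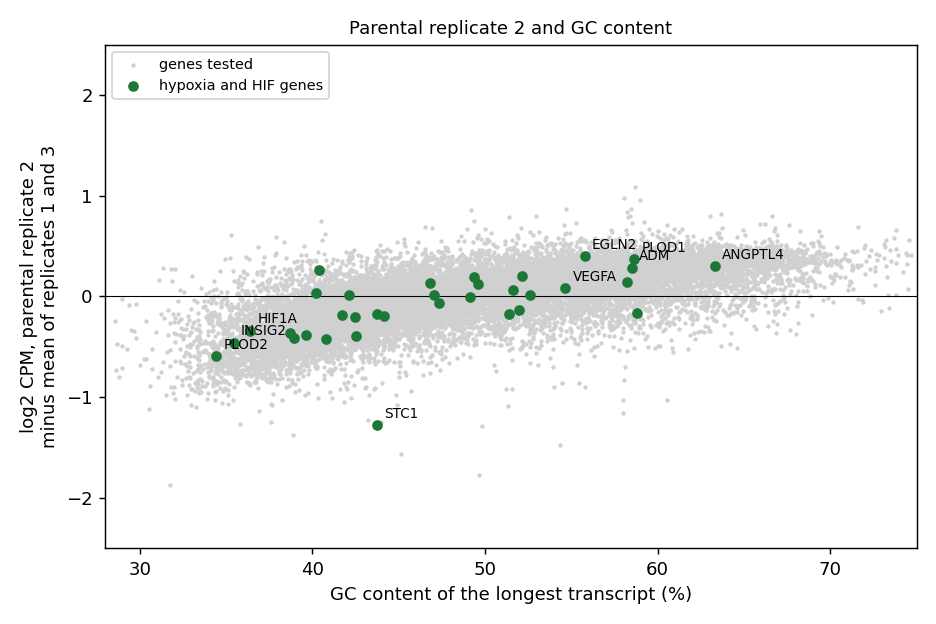
GC content of each of the 34 genes (percent, longest transcript) against the log2 difference of the second parental library from the mean of the other parental libraries, with all tested genes in grey except a few outside the axes. Genes of low GC content, such as PLOD2 at 34.4%, mostly lie below 0, and genes of high GC content, such as ANGPTL4 at 63.3%, mostly lie above it.

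HIF binds DNA at a short core, ACGTG or GCGTG, and the stretch just before the start of each gene was searched for both on both strands. Promoters were taken from RefSeq (GRCh38.p14) as the 250 bases before the gene start, for 28 of the 34 genes, some of which have more than 1 start. The following 5 are shown 5′ to 3′ on the strand of the gene, because they cover 4 of the genes with large rises and 1 that did not pass, and range from no motif to 6. Capitals mark each match, written as CACGT or CACGC where it lies on the opposite strand. The P4HA1 promoter is chr10:73096867-73097116 (minus strand), with 1 match that starts at base -86. That of STC2 is chr5:173328415-173328664 (minus strand), with 3. That of ADM is chr11:10304823-10305072 (plus strand), with 1 at base -101. That of EGLN3 is chr14:33951075-33951324 (minus strand), with 0. That of BNIP3 is chr10:131981924-131982173 (minus strand), with 6, of which 2 form the palindrome CACGTG and count once on each strand.
P4HA1: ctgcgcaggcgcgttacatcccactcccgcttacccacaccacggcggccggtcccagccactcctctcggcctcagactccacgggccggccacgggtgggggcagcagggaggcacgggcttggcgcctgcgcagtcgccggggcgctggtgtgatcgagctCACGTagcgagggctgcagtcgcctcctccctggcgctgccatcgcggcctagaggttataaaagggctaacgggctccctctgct
STC2: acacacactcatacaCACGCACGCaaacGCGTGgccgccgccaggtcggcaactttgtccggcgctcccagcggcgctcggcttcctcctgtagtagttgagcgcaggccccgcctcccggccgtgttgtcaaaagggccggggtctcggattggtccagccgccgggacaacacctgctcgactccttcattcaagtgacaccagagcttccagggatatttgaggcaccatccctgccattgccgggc
ADM: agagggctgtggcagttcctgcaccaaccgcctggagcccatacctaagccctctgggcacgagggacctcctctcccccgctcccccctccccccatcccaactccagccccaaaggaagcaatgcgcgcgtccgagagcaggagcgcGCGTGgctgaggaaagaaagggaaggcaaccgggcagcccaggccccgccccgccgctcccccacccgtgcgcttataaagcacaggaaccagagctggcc
EGLN3: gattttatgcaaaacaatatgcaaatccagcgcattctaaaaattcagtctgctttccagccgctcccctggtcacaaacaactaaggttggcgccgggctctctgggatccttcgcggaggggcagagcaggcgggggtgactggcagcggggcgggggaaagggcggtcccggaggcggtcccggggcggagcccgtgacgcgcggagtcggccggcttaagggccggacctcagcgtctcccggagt
BNIP3: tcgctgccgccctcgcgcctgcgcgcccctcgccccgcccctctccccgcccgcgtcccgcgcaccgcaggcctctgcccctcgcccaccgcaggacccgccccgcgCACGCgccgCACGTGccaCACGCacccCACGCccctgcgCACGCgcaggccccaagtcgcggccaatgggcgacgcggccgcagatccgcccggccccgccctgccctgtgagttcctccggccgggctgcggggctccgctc

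Of 39 such promoters, 31 (79.5%) held at least 1 match, against 43.2% of all 35116 RefSeq promoters and 53.4% of the 17423 promoters of tested genes. The genes were chosen as known HIF targets, so this share describes the choice. By call, the share was 12 of 15 promoters for genes that rose, 4 of 4 for genes that fell and 15 of 20 for genes that did not pass. Each start was counted separately, and some windows of the same gene overlap, as for LOX, KDM3A and INSIG2. The 4 promoters of genes that fell belong to LOX and PPFIA4 alone. No promoter was available for VHL, VEGFA, BNIP3L, LOXL2, NDRG1 and STC1. BNIP3, with the most matches of the 5 shown, had a log2 fold change of -0.016, and EGLN3, with none in this window, had the largest rise of the 34 genes. A match describes the letters only and is neither a binding site nor a cause, and no match says only that these letters are not in this window.

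Other genes of the pathway, from a list written with earlier results of these data known, were called in both directions. Of 53 listed, 50 were tested, of which 11 were higher (22.0%) and 15 lower (30.0%), against 17.5% and 21.3% of all genes tested, with a median log2 fold change of -0.058 against -0.0075. Of 18 regulators of HIF, 1 was higher and 5 were lower. ARNT2, which encodes an alternative beta subunit, was the largest, at 28.3 ± 2.47 CPM in parental and 3.31 ± 0.555 CPM in liver-derived cells (SD, n = 3 each), and fell by 3.07 on the log2 scale (SE 0.13, adjusted p = 3.28e-07). On the TPM scale ARNT2 made up 23.2% ± 1.5 of the summed ARNT and ARNT2 level in parental cells and 3.61% ± 0.519 in liver-derived cells, while the sum was 55.8 ± 1.32 and 40.7 ± 1.03 TPM. FKBP8, a cofactor in the turnover of EGLN1, was at 378.2 ± 64.6 and 267.4 ± 2.1 CPM (log2 fold change -0.50, SE 0.11, adjusted p = 0.00655). FKBP8 has a GC content of 66.6%, and its parental libraries were at 342.8, 452.8 and 338.9 CPM, so the second raised the parental mean. CITED2, which competes with HIF for its coactivators, was at 380.7 ± 20.7 and 308.2 ± 1.56 CPM (log2 fold change -0.30, SE 0.066, adjusted p = 0.00562).

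Of the 32 tested targets outside the 34 genes, 10 were higher and 10 lower (31.2% each), against 17.5% and 21.3% of all genes tested. IGFBP3, a binding protein for insulin-like growth factors, was at 67.2 ± 2.28 CPM in parental and 6.20 ± 0.429 CPM in liver-derived cells, and fell by 3.44 on the log2 scale (SE 0.088, adjusted p = 3.15e-08). DDIT4, an inhibitor of mTOR signalling, was at 32.0 ± 4.16 and 181.8 ± 1.2 CPM (log2 fold change 2.51, SE 0.10, adjusted p = 2.26e-07). TMEM45A, a membrane protein gene, was at 8.84 ± 0.465 and 2.03 ± 0.0493 CPM and fell by 2.13 on the log2 scale (SE 0.10, adjusted p = 5.42e-07). SPAG4 was at 2.74 ± 0.302 and 6.78 ± 0.195 CPM (log2 fold change 1.31, SE 0.11, adjusted p = 2.11e-05), and SAP30, a subunit of a histone deacetylase complex, at 58.3 ± 6.49 and 117.1 ± 2.22 CPM (1.01, SE 0.090, adjusted p = 3.06e-05). The libraries of the groups did not overlap for any of these 5 genes.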

How the data were processed

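RNA of 3 parental and 3 liver-derived 22Rv1 libraries was sequenced as polyA-selected paired reads, per the labels' protocols; groups come from the sample titles. Trimmomatic 0.36, STAR 2.5.2b and featureCounts of Subread 1.5.2 with build GRCh38 are named in the submitters' processing notes. The annotation release and strand setting were not given in the sources used.

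Whole-number counts per gene, not normalized, were deposited for every library, beside a table of TPM that the authors deposited for the same libraries. TPM recomputed from the counts and gene lengths differed from the deposited TPM by a relative difference of at most 4.82e-05. Its last 391182 rows name no gene and were dropped. GENCODE release 29 gave biotype and GC content, and exon overlaps were computed from the gene coordinates deposited with the counts.

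After filterByExpr and TMM scaling, the test was that of edgeR 4.0.16 (under R 4.3.3, with robust quasi-likelihood, group as the only term), adjusted by Benjamini-Hochberg over 19255 genes with a threshold of 0.05. SE is the log2 fold change divided by the root of the F statistic. CPM and TPM are given as mean and SD over 3 libraries. The common biological coefficient of variation was 9.57%. Every pair of libraries within a group differed by more than sampling noise (chi-square over genes of mean count 50 or more). The fit was tested on simulated counts.

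The 34 genes, the other lists and the markers were chosen with earlier results of these data known. Some marker genes are not reported here. Values in every library are given for genes past the threshold with a log2 change of 0.8 or more in size and 1 CPM or more in the group where they are higher, and for HIF1A, EPAS1, ARNT, VHL, EGLN1, EGLN2, EGLN3 and VEGFA. From the other pathway list, 3 regulators and 5 targets with the largest called changes and the same minimum of 1 CPM are named. Values by library for other called genes and for STC1 were added after the values were seen. Alternatives were other scalings and filters, DESeq2 1.42.0, limma-voom (limma 3.58.1), limma on log2(TPM + 1) or log2(TPM + 0.1), a GC-content offset, the replicate number as a block, each library left out, and, added after the data were seen, the third library of both groups left out.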

Additional observations from a re-analysis of the deposited data

How the results depend on the processing

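Over 19 alternatives, 11 of the 17 calls among the 34 genes held wherever a value could be had; PPFIA4, one of them, had a value in 17 and RORA-AS1, not called, in 16, since the filters on low values drop them. P4HA2, PLOD2, LOX, ERO1A, BHLHE41 and WSB1 were lost in at least 1, and 9 of the 17 genes not called were called in at least 1. Genes called higher numbered 13, from 10 to 16 with 1 library left out, 17 with the GC-content offset and 9 in the TPM fits. Genes called lower numbered 4, from 4 to 8 with 1 library left out and 7 with the GC-content offset. Without the third library of each group, 9 were higher and 5 lower. Of the other pathway genes, 11 were higher and 15 lower, from 8 to 17 and from 11 to 23 with 1 library left out, and 7 and 7 without the third library of each group, a fit with fewer samples. All genes called in either direction numbered 7476 of 19255 tested, and 7610 of 19255 by library size alone. They numbered 11870 of 19864 without the second parental library and 10866 of 19165 with the GC-content offset. Without the third library of each group they numbered 4714 of 19274. In the TPM fits they numbered 6456 and 6358 of 17453, and 6027 of 35807 without a filter. With the replicate block, 12 of the 34 were higher and 5 lower, the added one being STC1, and 7052 of all genes were called. Deviations of same-numbered libraries correlated by -0.00842, 0.00925 and 0.0722, and those of different-numbered libraries by -0.0398 to 0.0304. The value for the third libraries, 0.0722, was the highest, but all were small, and the numbers were not taken to pair the samples. Log2 fold changes near 0 changed sign, and the cause was not tested. With 1 library left out, the range was -0.17 to 0.0038 for HIF1A, -0.030 to 0.16 for EPAS1, -0.031 to 0.014 for VHL, -0.11 to 0.12 for EGLN2, -2.14 to 0.68 for STC1, -0.080 to 0.018 for BNIP3, -0.026 to 0.18 for PLOD1, -0.42 to 0.053 for BHLHE40 and -0.12 to 0.11 for INSIG2. Without the third library of each group EPAS1 was at -0.019, BNIP3 at 0.020, PLOD1 at -0.0007 and BHLHE40 at 0.042. With the GC-content offset EGLN2 was at 0.027 and INSIG2 at -0.014. By library size alone PLOD1 was at -0.0050 and INSIG2 at -0.028, and VHL was at 0.0005 with DESeq2 and 0.0051 with RLE factors. Depth limits RORA-AS1, at 18 to 29 counts, and PPFIA4 most.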

Other observations

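Other HIF targets of the pathway list moved in both directions, and those given here were chosen after their values were seen. Higher in liver-derived cells were TFRC, the transferrin receptor gene, at 340.0 CPM in parental and 492.8 CPM in liver-derived cells on average (log2 fold change 0.54, adjusted p = 0.00108), and HMOX1, which encodes a haem-degrading enzyme, at 7.11 and 11.0 CPM (0.63, adjusted p = 6.86e-04). ENG, a coreceptor of the TGF-beta family, was at 2.46 and 4.19 CPM (0.77, adjusted p = 0.0038), and NT5E, an enzyme that makes adenosine outside the cell, at 2.00 and 3.50 CPM (0.78, adjusted p = 0.0161). Lower were the ephrin genes EFNA3, at 43.6 and 23.8 CPM (-0.87, adjusted p = 8.2e-05), and EFNA1, at 57.7 and 44.3 CPM (-0.38, adjusted p = 0.0117). TGFB3 was at 9.74 and 5.72 CPM (-0.76, adjusted p = 1.58e-04) and EDN1, the endothelin 1 gene, at 4.94 and 3.63 CPM (-0.45, adjusted p = 0.0189). HILPDA, a lipid droplet gene widely used as a hypoxia marker, was at 36.6 and 29.6 CPM and lower (-0.31, adjusted p = 0.00738). MIR210HG, the host transcript of a hypoxia-induced miRNA, was at 2.79 and 2.09 CPM and did not pass (adjusted p = 0.052).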
